A study of Mus musculus with 9 samples.

Results

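The 9 genes described are Ttr, Rxrg, Umodl1, Vegfd, P2rx3, Srfbp1, Brinp1, Fmod and Gata2, chosen from measured values as those with the largest rises in cochleae homozygous for a mutant Pou4f3 allele. All 9 were found by Ensembl identifier in each of the 9 libraries, out of 1137 genes given for the homozygous mutants and 51912 given for the other genotypes. RNA-seq was done on cochleae of mice at postnatal day 3. The groups, with 3 libraries each, were Pou4f3(Δ/Δ), called HOM here, Pou4f3(Δ/+), called HET, and Pou4f3(+/+), called WT. The design text names Δ/+ mice and their wild-type littermates and does not mention HOM animals. The labels name no treatment, do not say whether animals were pooled and give no extent of the Δ deletion. Groups follow the sample titles. The genotype characteristic of every sample names another genotype than its title, so each direction below rests on the titles. Values are FPKM, fragments per kilobase of gene, scaled to the depth of the library.

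Pou4f3 is a POU-domain transcription factor of hair cells, the mechanosensory cells of the cochlea, and it is needed for them to mature and survive. The 9 genes are not hair cell markers. Ttr encodes transthyretin, a carrier of thyroid hormone and of retinol bound to its binding protein, which liver and the choroid plexus of the brain are known to make. Rxrg encodes a retinoid X receptor, the nuclear receptor that pairs with retinoic acid and thyroid hormone receptors. Vegfd is a secreted growth factor of lymphatic vessels, and P2rx3 forms an ATP-gated cation channel of sensory neurons. Gata2 is a zinc finger transcription factor of blood progenitors, endothelium and the developing inner ear, and Srfbp1 encodes a protein that binds serum response factor. Fmod encodes fibromodulin, a small leucine-rich proteoglycan that binds collagen fibres. Umodl1 encodes a protein with a zona pellucida domain, and Brinp1 a neuronal protein named for induction by bone morphogenetic protein and retinoic acid. In such whole-tissue RNA, more cells of a type and more RNA in each cell cannot be told apart.

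Pou4f3 itself was at 5.92, 1.36 and 9.39 FPKM in HOM replicates 1 to 3, at 24.21, 21.74 and 25.56 FPKM in HET and at 25.02, 24.49 and 26.97 FPKM in WT. The HOM libraries lay below all others, and the HET and WT libraries overlapped. The difference was -2.26 on the log2(FPKM + 1) scale for HOM minus WT (limma adjusted p = 0.0114) and -2.16 for HOM minus HET (adjusted p = 0.0187; 0.0654 without HET 2 and 0.0732 without HET 3). Depth, recovered from the low values and rounded, was 14320000 to 15760000 fragments in HOM, 15540000 to 17400000 in HET and 14570000 to 17020000 in WT. HET 1 and WT 3 stood apart from the other HET and WT libraries on the largest axis of variance, which held 58.1% of the variance, so the comparison of HET with WT is also given without that pair. Nothing in the labels says that replicates came from separate animals, so the tests measure only the spread between these libraries.

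All 9 genes had every HOM library above every HET and every WT library. These values entered the choice of the genes, so no test is attached to them. For comparison, of 1109 listed genes tested for HOM against WT, 30.9% had every HOM library above every WT library, and 69.1% had them below. Of 1090 tested for HOM against HET, 15.7% had every HOM library above every HET library and 46.2% had them below. By size of rise on the log2(FPKM + 1) scale against WT, Ttr, Rxrg, Umodl1, Vegfd and P2rx3 were in ranks 2 to 6, Srfbp1 in rank 8, Brinp1 in rank 11, Gata2 in rank 35 and Fmod in rank 48. Against HET, Umodl1, Rxrg, P2rx3 and Brinp1 held ranks 2 to 5, Vegfd rank 7, Fmod rank 8, Gata2 rank 10, Ttr rank 21 and Srfbp1 rank 32. No threshold was stated for the choice. The genes of equal or higher rank that are not among the 9 include Gnpda1, with the largest rise against WT (14.8 FPKM in HOM and 6.80 FPKM in WT), and the microRNA gene Mir208a, with the largest against HET. The smallest distance between the lowest HOM library and the highest other library was 0.09 FPKM, for Vegfd, and the largest was 4.17 FPKM, for Gata2.

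**Figure D1:**
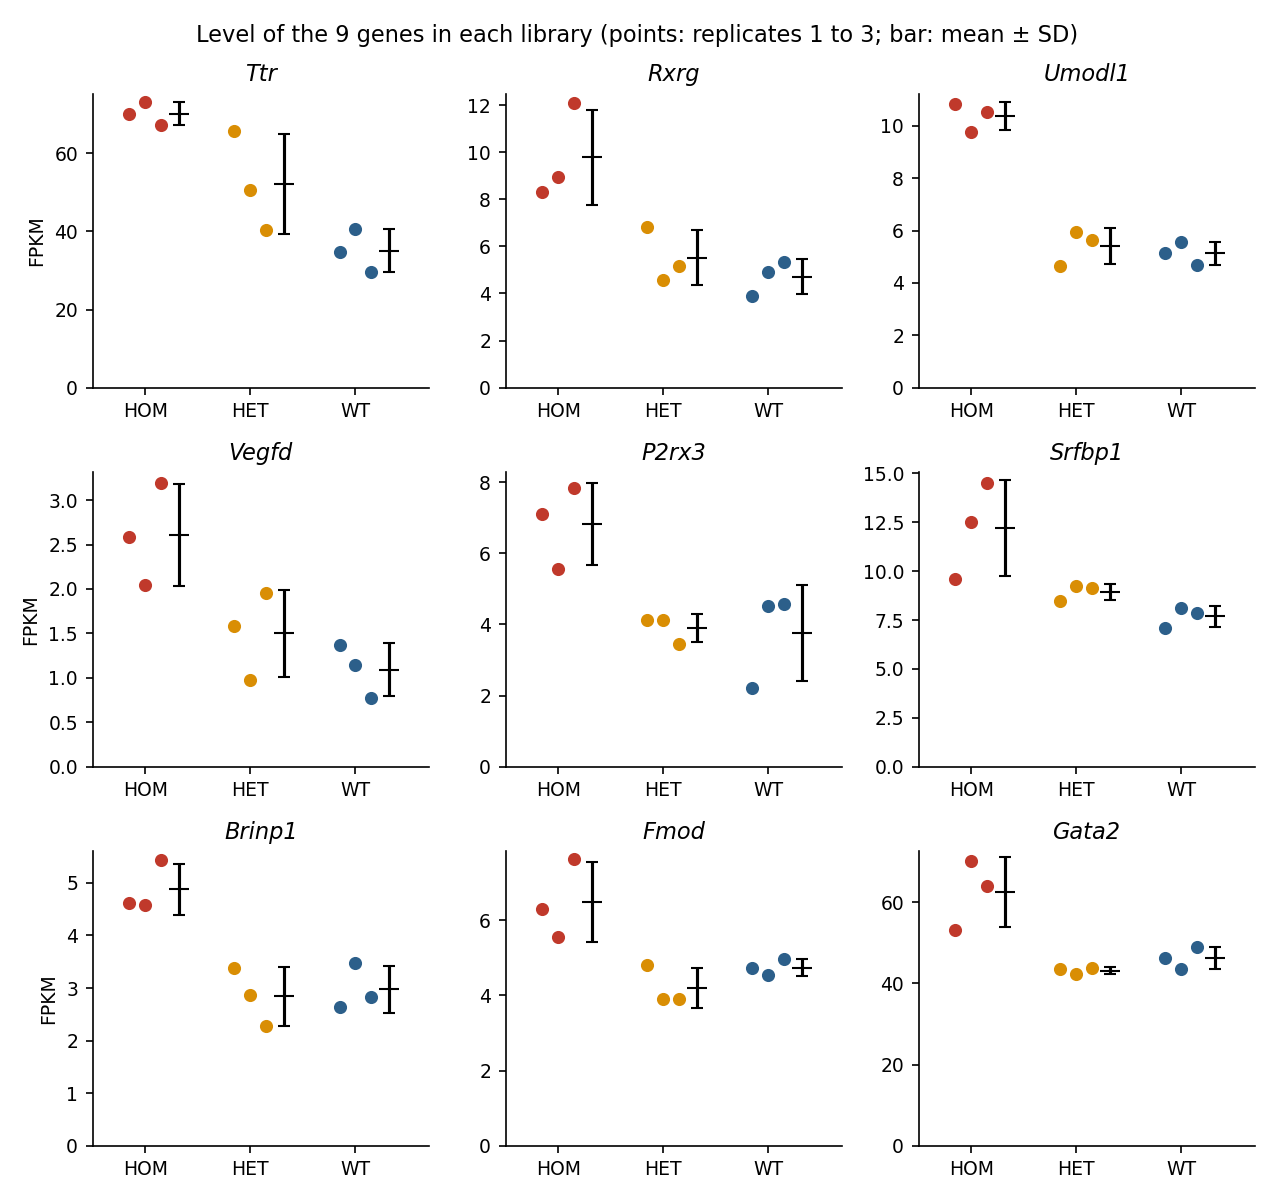
FPKM of the 9 genes in each library, with HOM, HET and WT from left to right, replicates 1 to 3 as points and the mean ± SD as a bar beside them. In each panel the lowest HOM point lies above the highest HET and WT point, narrowly for Vegfd (2.04 FPKM against 1.95 FPKM in the highest HET library).

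Promoter windows from RefSeq on build GRCm38.p6, 250 bases before to 50 bases after an annotated transcript start, were found for 6 of the 9 genes, in 8 windows. The windows of Rxrg, which has a pair of starts, of Umodl1 and of Vegfd are shown because these genes had the largest rises against WT among those with a window. Each is written 5′ to 3′ along the gene, all on the + strand, and capitals mark matches to 4 short motifs searched on both strands: ATTAAT, the core of POU4 sites, AGGTCA, the nuclear receptor half-site, AGATAA, the GATA core, and TATAAA, the TATA box.
Rxrg, chr1:167598112-167598411: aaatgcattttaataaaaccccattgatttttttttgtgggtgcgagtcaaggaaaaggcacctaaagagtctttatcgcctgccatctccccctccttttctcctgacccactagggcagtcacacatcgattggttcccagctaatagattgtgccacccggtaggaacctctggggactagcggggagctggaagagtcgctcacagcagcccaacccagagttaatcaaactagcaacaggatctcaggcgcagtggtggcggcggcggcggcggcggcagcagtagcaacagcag
Rxrg, chr1:167618015-167618314: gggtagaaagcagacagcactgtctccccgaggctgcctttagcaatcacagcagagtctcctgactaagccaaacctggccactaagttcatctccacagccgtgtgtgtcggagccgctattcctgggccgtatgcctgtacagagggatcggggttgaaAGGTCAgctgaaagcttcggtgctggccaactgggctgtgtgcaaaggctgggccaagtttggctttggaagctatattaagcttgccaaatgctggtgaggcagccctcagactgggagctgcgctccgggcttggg
Umodl1, chr17:30954433-30954732: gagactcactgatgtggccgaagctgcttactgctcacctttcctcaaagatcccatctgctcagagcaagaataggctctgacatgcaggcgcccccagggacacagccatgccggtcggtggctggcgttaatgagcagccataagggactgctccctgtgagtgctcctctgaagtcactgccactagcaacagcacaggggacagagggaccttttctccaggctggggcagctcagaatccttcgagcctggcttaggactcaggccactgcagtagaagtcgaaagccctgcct
Vegfd, chrX:164373272-164373571: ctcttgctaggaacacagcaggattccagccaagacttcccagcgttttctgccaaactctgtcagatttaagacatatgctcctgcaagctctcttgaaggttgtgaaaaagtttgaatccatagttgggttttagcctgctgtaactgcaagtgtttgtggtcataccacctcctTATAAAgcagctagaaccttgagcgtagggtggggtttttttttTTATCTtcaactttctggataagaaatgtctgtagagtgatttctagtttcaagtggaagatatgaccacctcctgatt

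Of the 8 windows, 0 held ATTAAT, which 4.75% of 32817 promoter windows hold. AGGTCA was in 1 window, the downstream one of Rxrg, at -88 from the start, and in 16.3% of all windows. The GATA core was in 2 windows, those of Vegfd (at -29, as TTATCT on the strand shown) and Fmod, and in 11.2% of all windows. TATAAA was in 1 window, that of Vegfd, at -73, and in 13.6% of all windows. A match is only a run of letters, and a missing one says nothing of sites outside the window.

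Ttr and Rxrg are the hormone and retinoid genes of the 9. Ttr (ENSMUSG00000061808, chr18:20665280-20674321 on the + strand in GRCm38, 4 exon blocks) was at 69.95, 73.13 and 67.26 FPKM in HOM, at 65.72, 50.53 and 40.31 FPKM in HET and at 34.8, 40.66 and 29.66 FPKM in WT. The HOM libraries lay close together, and the HET libraries spread over nearly the whole distance, with HET 1 next to HOM and HET 3 inside the WT range. The difference of mean log2(FPKM + 1) was 0.99 (SE 0.11) for HOM minus WT, and 0.45 (SE 0.16) for HOM minus HET. Without HET 3 the difference between HOM and HET was 0.28. Rxrg (ENSMUSG00000015843, chr1:167598384-167639623, + strand, 11 exon blocks) was at 8.31, 8.94 and 12.08 FPKM in HOM, at 6.83, 4.55 and 5.18 FPKM in HET and at 3.89, 4.93 and 5.32 FPKM in WT. HOM 3 was the highest library, and HET 1 was the only HET library above the WT range. Rxrg differed by 0.91 (SE 0.15) for HOM minus WT and by 0.72 (SE 0.17) for HOM minus HET.

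Around Ttr and Rxrg, 3 of 18 genes of retinoid transport and signalling were given for HOM, and all 3 passed limma's threshold against WT (adjusted p under 0.05, passed by 93.1% of the 1109 listed genes, 27.7% as higher and 65.4% as lower). Every listed gene tested had HOM apart from WT beforehand. Adjusted p values against WT, here and for the partner and marker genes below, thus describe a difference against its spread and are no independent test. Aldh1a1, an enzyme that makes retinoic acid, was at 33.91, 34.54 and 35.98 FPKM in HOM and at 26.27, 30.76 and 28.24 FPKM in WT, a rise of 0.29 (SE 0.06, limma adjusted p = 0.0102). The retinoic acid-degrading enzyme gene Cyp26b1 fell to 55.24, 47.78 and 49.91 FPKM in HOM, against 66.81, 66.38 and 67.28 FPKM in WT (-0.39, SE 0.06, adjusted p = 0.00357). Stra6, the cell-surface receptor for retinol bound to its binding protein, fell by 0.44 in HOM against WT (adjusted p = 0.0223). Its level was 4.38 ± 0.923 FPKM in HOM, 4.41 ± 0.0945 in HET and 6.23 ± 0.612 in WT (SD, n = 3 each), with every HET library below every WT library, as in 3.12% of 15391 genes. The call of Stra6 was lost without WT 1, WT 2 or HOM 1 (adjusted p from 0.0591 to 0.0711) and under both scalings, and that of Cyp26b1 under upper-quartile scaling (adjusted p = 0.105). Against HET, Cyp26b1 fell by 0.40 (adjusted p = 0.0252, lost without HET 2, HET 3, HOM 2 or HOM 3 at 0.0639 to 0.0841). That call was also lost with median-ratio scaling (-0.24, adjusted p = 0.0853), with upper-quartile scaling (-0.16, adjusted p = 0.235) and with a replicate block (adjusted p = 0.0661). Stra6 did not pass against HET (-0.02, adjusted p = 0.888). Neither did Aldh1a1 (0.16, adjusted p = 0.153), which passed with median-ratio scaling (0.32, adjusted p = 0.0286) and with upper-quartile scaling (0.39, adjusted p = 0.0127). Rbp4, the retinol-binding partner of transthyretin, was at 0.25 to 1.04 FPKM in HET and 0.26 to 1.40 FPKM in WT. Of the other listed partners, the retinoid-binding protein gene Crabp1 had the highest WT mean, with 117 ± 55.2 FPKM in HET against 133 ± 16.8 FPKM in WT (SD, n = 3 each). None (0) of 7 thyroid hormone carriers and receptors was given for HOM. Of these Crym, which binds thyroid hormone in the cytosol, was at 69.6 ± 18.6 FPKM in HET and 69.3 ± 13.0 FPKM in WT, and the receptor gene Thra at 34.0 ± 1.69 FPKM in HET and 35.0 ± 1.03 FPKM in WT.

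Of the ligand and receptor genes, Vegfd (ENSMUSG00000031380, chrX:164373378-164402650, + strand, 7 exon blocks) was the lowest of the 9, at 2.58, 2.04 and 3.19 FPKM in HOM, 1.58, 0.98 and 1.95 FPKM in HET and 1.37, 1.14 and 0.77 FPKM in WT. These rest on 28 to 121 fragments a library, so its levels carry the largest counting error of the 9. Of the HET libraries, 2 lay above the WT range and 1 within it. The difference was 0.78 (SE 0.16) for HOM minus WT and 0.53 (SE 0.18) for HOM minus HET, and with a pseudocount of 0.1 in place of 1 it was 1.19 against WT. Vegfd lies on the X chromosome, and the libraries differed in sex-linked RNA. Xist, made by the inactive X chromosome, was at 53.95, 107.88 and 56.88 FPKM in HET and at 0.08, 78.17 and 0.06 FPKM in WT. The Y-linked gene Ddx3y was at 4.79, 8.7 and 12.84 FPKM in HET and at 19.57, 8.05 and 16.29 FPKM in WT. Every HET library and WT 2 thus held both RNAs, as pools of female and male animals would, while WT 1 and WT 3 held almost no Xist. The test of HET against WT was not adjusted for this difference. None (0) of 5 sex-linked genes was given for HOM, and the part of sex in the Vegfd levels was not tested. Of 9 other VEGF ligands and receptors, 0 were given for HOM. Vegfa was at 21.7 ± 2.06 FPKM in HET and 21.9 ± 1.56 FPKM in WT, Vegfb at 19.5 ± 5.76 FPKM in HET and 21.4 ± 3.39 FPKM in WT, and Flt4, the lymphatic receptor for Vegfd, stayed between 0.16 and 0.33 FPKM in these 6 libraries.

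P2rx3 (ENSMUSG00000027071, chr2:84998583-85037462, - strand, 15 exon blocks) was at 7.09, 5.57 and 7.83 FPKM in HOM, 4.13, 4.12 and 3.44 FPKM in HET and 2.21, 4.53 and 4.57 FPKM in WT. WT 1 was far below the other WT libraries, and the HET libraries lay inside the WT range. The difference was 0.75 (SE 0.24) for HOM minus WT, 0.49 without WT 1, and 0.67 (SE 0.13) for HOM minus HET. P2rx3 overlaps 229 bases of Ssrp1 on the opposite strand, which was at 37.71 to 41.55 FPKM in HET and 38.16 to 41.43 FPKM in WT. Use of strand in counting is not given, so reads of that stretch cannot be assigned. Of 12 other purinergic receptor genes, 1 was given for HOM. This was P2ry6, a receptor for uridine nucleotides, which fell by 0.42 (SE 0.07, limma adjusted p = 0.00518) to 0.94, 0.77 and 0.86 FPKM in HOM, against 1.36, 1.59 and 1.49 FPKM in WT. It fell by 0.33 against HET (adjusted p = 0.0280, lost without any 1 of the HOM libraries at 0.0569 to 0.0704, under both scalings and with a replicate block). P2rx2, which can join P2rx3 in one channel, was at 15.4 ± 3.72 FPKM in HET and 15.4 ± 1.11 FPKM in WT, and P2ry1 at 9.27 ± 1.46 FPKM in HET and 8.23 ± 1.35 FPKM in WT.

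Among the nuclear proteins, Gata2 (ENSMUSG00000015053, chr6:88193891-88207032, + strand, 7 exon blocks) was at 53.16, 70.21 and 64.03 FPKM in HOM, 43.5, 42.27 and 43.73 FPKM in HET and 46.4, 43.55 and 48.99 FPKM in WT. The coefficient of variation was 13.8% over the HOM libraries and 1.82% over the HET libraries, of which 2 lay under the WT range. The difference was 0.42 (SE 0.10) for HOM minus WT and 0.51 (SE 0.10) for HOM minus HET. Of 10 GATA factors and partners, 4 were given for HOM, and 3 of them rose against WT and 1 fell. Of all listed genes tested, 27.7% were called higher against WT and 65.4% lower. Gata3, the related factor of sensory epithelium and ganglion, was at 91.49, 100.28 and 96.16 FPKM in HOM and at 85.38, 87.0 and 85.68 FPKM in WT (0.16, SE 0.04, limma adjusted p = 0.0196). Zfpm1, which encodes the GATA cofactor FOG1, was at 29.67, 30.06 and 34.5 FPKM in HOM and at 25.79, 26.54 and 25.66 FPKM in WT (0.26, SE 0.06, adjusted p = 0.0131). Lmo2, a LIM-domain partner, rose by 0.31 (adjusted p = 0.0214). Tal1, the blood and endothelial partner of Gata2, fell by 0.89 (SE 0.15, adjusted p = 0.00490) to 0.48, 0.16 and 0.51 FPKM in HOM, against 1.25, 1.46 and 1.98 FPKM in WT. The call of Gata3 was lost without WT 1 (adjusted p = 0.0575) and that of Lmo2 without WT 1, WT 2, HOM 1 or HOM 3 (0.0507 to 0.0664). All 4 were also called against HET in the same direction, with Zfpm1 at 0.38 (adjusted p = 0.0105) and Tal1 at -1.18 (adjusted p = 0.00569). Against HET, the call of Gata3 (0.19, adjusted p = 0.0303) was lost without HET 2, HET 3, HOM 2 or HOM 3 (0.0786 to 0.1004), and that of Lmo2 (0.38, adjusted p = 0.0468) without any 1 library except HOM 2 (0.0664 to 0.138). Both comparisons share the HOM libraries.

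Srfbp1 (ENSMUSG00000024528, chr18:52465693-52491931, + strand, 10 exon blocks) was at 9.6, 12.51 and 14.5 FPKM in HOM, 8.46, 9.23 and 9.14 FPKM in HET and 7.07, 8.12 and 7.86 FPKM in WT. It was the only 1 of the 9 genes whose 3 HET libraries all lay above all 3 WT libraries, with HET between the other groups, where 2.82% of 15391 genes had HET above WT in that way. The difference was 0.59 (SE 0.14) for HOM minus WT and 0.39 (SE 0.14) for HOM minus HET. Of 13 genes of serum response factor and its targets, 2 were given for HOM, the coactivator gene Mrtfa (-0.21, limma adjusted p = 0.0306) and the early response gene Egr1 (-0.35, SE 0.04, adjusted p = 0.00200), both lower than in WT. Egr1 was at 5.5, 5.38 and 5.48 FPKM in HOM, 6.61, 5.16 and 4.93 FPKM in HET and 7.31, 7.27 and 7.02 FPKM in WT. Neither passed against HET (Egr1 -0.02, adjusted p = 0.894, and Mrtfa 0.02, adjusted p = 0.856). The call of Mrtfa against WT was lost without any 1 library except HOM 2 (adjusted p from 0.0544 to 0.0956) and under both scalings, and that of Egr1 under upper-quartile scaling (adjusted p = 0.0661). Myl9, a muscle and stromal myosin light chain, and the matrix protein gene Ccn2 had the highest WT means of that list, with 64.6 ± 13.6 and 21.95 ± 1.27 FPKM in HET against 71.8 ± 3.90 and 21.0 ± 2.19 FPKM in WT.

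In the matrix and surface group, Fmod (ENSMUSG00000041559, chr1:134037254-134048277, + strand, 3 exon blocks) was at 6.3, 5.54 and 7.63 FPKM in HOM, 4.82, 3.91 and 3.89 FPKM in HET and 4.73, 4.53 and 4.96 FPKM in WT. HET 2 and HET 3 lay below the WT range, so the difference was larger for HOM minus HET (0.52, SE 0.13) than for HOM minus WT (0.38, SE 0.11). Of 12 other small leucine-rich proteoglycans, 4 were given for HOM, and all 4 were called higher against WT and against HET. Of all listed genes tested, 27.7% were called higher against WT and 8.17% against HET. Listed genes tested all had HOM apart from WT, so family members without such a gap would not be seen here. Lum, which encodes the collagen-binding lumican, was at 336.73, 401.08 and 366.7 FPKM in HOM, 289.66, 273.1 and 255.08 FPKM in HET and 272.15, 266.62 and 283.35 FPKM in WT. Its rise was 0.42 (SE 0.08, limma adjusted p = 0.00633) against WT and 0.43 (adjusted p = 0.0135) against HET. Ogn (osteoglycin) had 52.9 ± 1.72 FPKM in HOM, 39.5 ± 5.63 in HET and 42.8 ± 4.01 in WT (SD, n = 3 each), rising by 0.31 against WT (adjusted p = 0.0125) and by 0.42 against HET (adjusted p = 0.0178). Dcn, which encodes decorin, was at 75.14, 103.41 and 91.29 FPKM in HOM, 77.77, 57.37 and 56.42 FPKM in HET and 62.89, 63.96 and 70.31 FPKM in WT. It overlapped between HOM and HET, with HET 1 above HOM 1, and its calls (0.44 against WT, adjusted p = 0.0176; 0.49 against HET, adjusted p = 0.0484) were lost without WT 1 or WT 2 (0.0530 to 0.0540) and without HET 2, HET 3, HOM 2 or HOM 3 (0.112 to 0.1495). Epyc, which encodes epiphycan of the supporting cells, rose by 0.45 against WT (adjusted p = 0.00791) and by 0.52 against HET (adjusted p = 0.0239). Against HET the calls of Lum, Ogn and Epyc were lost without HET 2 or HET 3, and that of Epyc also without HOM 1 or HOM 3, at adjusted p from 0.0548 to 0.0976. The other 8 members of the family were not analysed here in HOM.

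Umodl1 (ENSMUSG00000054134, chr17:30954640-31010710, + strand, 23 exon blocks) was at 10.82, 9.77 and 10.55 FPKM in HOM, 4.63, 5.94 and 5.65 FPKM in HET and 5.14, 5.58 and 4.68 FPKM in WT. HET and WT overlapped, and the HOM libraries lay close together at about the same distance from both. The difference was 0.89 (SE 0.07) for HOM minus WT, 2.02 times the WT mean, and 0.83 (SE 0.09) for HOM minus HET. Antisense genes (AC165951.1 and AC165951.3) overlap it in the annotation, and with strand use not given their reads cannot be told apart. Of 9 other genes with a zona pellucida domain, 1 was given for HOM, the endothelial receptor gene Eng. Eng was at 10.95 ± 0.469 FPKM in HOM and 13.4 ± 1.09 FPKM in WT (-0.27, SE 0.07, limma adjusted p = 0.0140; not called under either scaling, 0.369 and 0.587), and differed by -0.03 from HET (adjusted p = 0.754). The tectorial membrane genes Tectb and Tecta were at 1621 ± 312 and 1000.2 ± 110 FPKM in HET against 1556 ± 54.8 and 995 ± 112 FPKM in WT. Brinp1 (ENSMUSG00000028351, chr4:68761514-68954397, - strand, 8 exon blocks) was at 4.62, 4.58 and 5.44 FPKM in HOM, 3.39, 2.87 and 2.27 FPKM in HET and 2.63, 3.47 and 2.82 FPKM in WT. HET and WT overlapped, with HET 3 the lowest library, and the difference was 0.57 (SE 0.10) for HOM minus WT and 0.62 (SE 0.13) for HOM minus HET. Its relatives Brinp2 (0.35 to 1.03 FPKM in HET and 0.50 to 0.88 FPKM in WT) and Brinp3 (0.14 to 0.34 FPKM in HET and 0.08 to 0.18 FPKM in WT) were low.

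**Figure D2:**
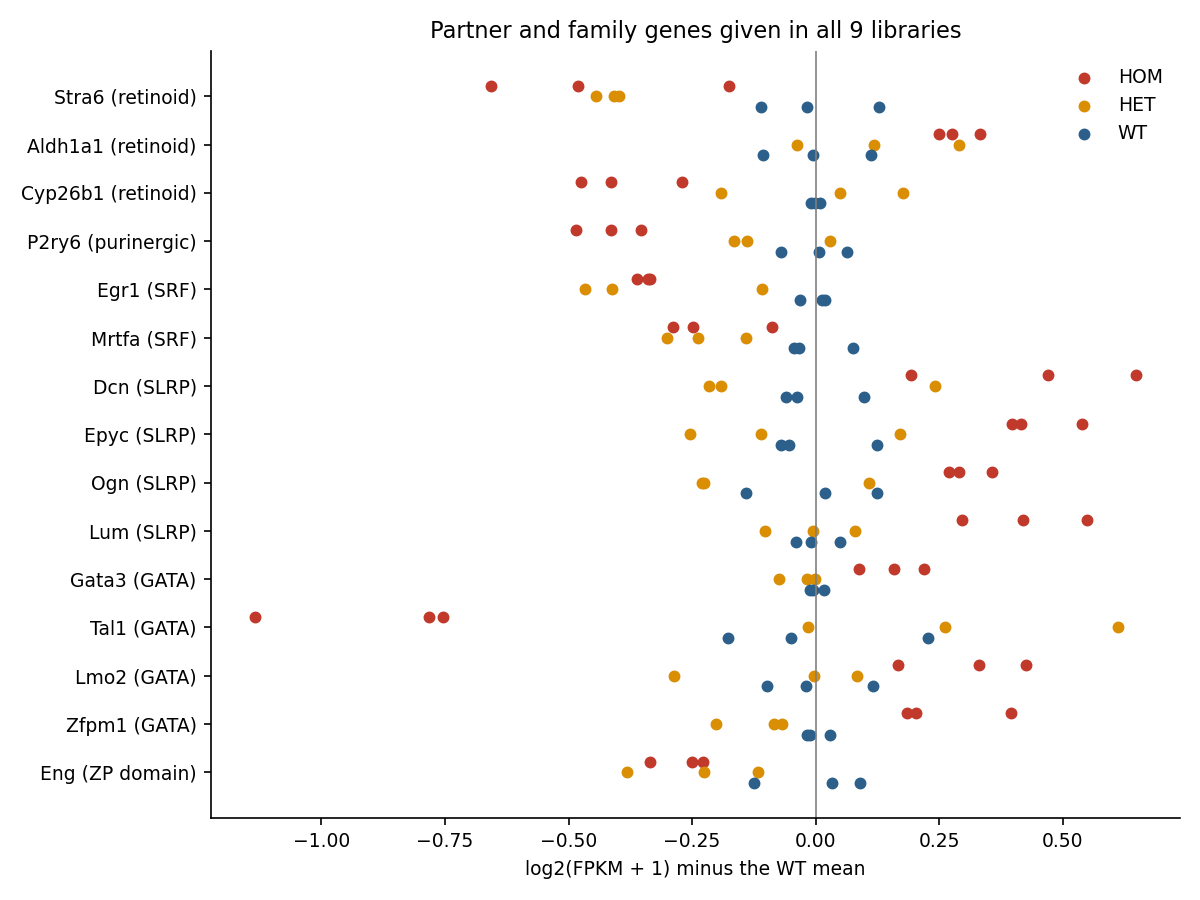
Level of the 15 partner and family genes given in all 9 libraries, as log2(FPKM + 1) minus the WT mean, with the list each belongs to in brackets and HOM, HET and WT from top to bottom in each row. The leucine-rich proteoglycan genes (SLRP) lie to the right in HOM (Lum by 0.42) and Tal1 lies to the left (-0.89). Stra6, Egr1, Mrtfa and Eng have the HET mean beside the HOM mean, with HET 1 of Egr1 (6.61 FPKM) between HOM and WT.

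Over the 9 lists of partners, 15 of 92 genes (16.3%) were given for HOM. Over all genes, 1137 of 51912 were given. Of expressed genes, 1109 were tested for HOM against WT, beside 15391 for HET against WT. How genes were selected for HOM is not described, so the number given from a list is by itself no result about that list. Against WT 8 of the 15 were higher and 7 lower, and against HET 7 were higher and 3 lower, where 44.5% of 1090 listed genes were called, 8.17% as higher and 36.3% as lower. The genes given for HOM all have HOM libraries outside the WT range (30.9% above and 69.1% below), so the counts against WT carry no independent weight. The same holds for the adjusted p of each listed gene against WT, that of Pou4f3 included. Median differences from WT were 0.43 for the 4 proteoglycans, 0.21 for the 4 GATA genes (of which Tal1 went the other way), -0.39 for the 3 retinoid genes and -0.28 for the 2 serum response genes. The single purinergic and zona pellucida genes were at -0.42 and -0.27, against -0.22 over all 1109 listed genes (-0.05 with median-ratio scaling and -0.03 with the upper-quartile kind). These scalings moved the 8 rises against WT up, to between 0.37 (Gata3) and 0.69 (Epyc), with Zfpm1 at 0.47 and 0.49 and Aldh1a1 at 0.49 and 0.52. They moved the falls towards 0, with Cyp26b1 at -0.18 and -0.15 and Egr1 at -0.16 and -0.14. For HOM, both scalings were set on the listed genes alone, most of which lie below WT. This raises HOM against WT by construction, so such shifts, and falls that lose their call under a scaling, are no independent check. In HET against WT, 0 of 71 partner genes tested passed.

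The place of HET between WT and HOM was taken on the log2(FPKM + 1) scale, with the WT mean at 0% and the HOM mean at 100%. Values of all groups entered the choice of the genes, so these positions are description only. By rise, Umodl1, P2rx3, Brinp1, Gata2 and Fmod ranked higher against HET than against WT, and Ttr, Srfbp1 and Vegfd lower. A low HET or WT mean moves both rank and position, so dose grading and an effect of the choice cannot be told apart. Ttr was nearest the middle, at 55.0% ± 34.9 (SD over the 3 HET libraries), with HET 1 at 90.8%, HET 2 at 53.2% and HET 3 at 21.0%. Srfbp1 stood at 33.4% ± 10.5 and was the steadiest of the genes above 25% in the HET libraries, which ran from 21.3% to 40.5%. Vegfd stood at 31.9% ± 37.5, above Srfbp1 under both scalings, with a pseudocount of 0.1 and without some libraries, such as HET 2 (52.3% for Vegfd and 29.8% for Srfbp1). Below them were Rxrg at 20.2% ± 27.98, P2rx3 at 10.6% ± 16.0 and Umodl1 at 6.69% ± 17.9. Brinp1 (-9.27% ± 37.5), Gata2 (-23.5% ± 6.19) and Fmod (-38.6% ± 38.2) lay on the far side of WT from HOM. Every step between neighbours in this order was smaller than the larger of their SDs. No HET library reached the HOM range in any of the 9 genes (0 libraries). The order rests in part on single libraries: P2rx3 stood at -37.9% without WT 1, Ttr at 29.2% without HET 1 and WT 3, Rxrg at 4.86% without HET 1, and Vegfd at 15.5% without HET 3.

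**Figure D3:**
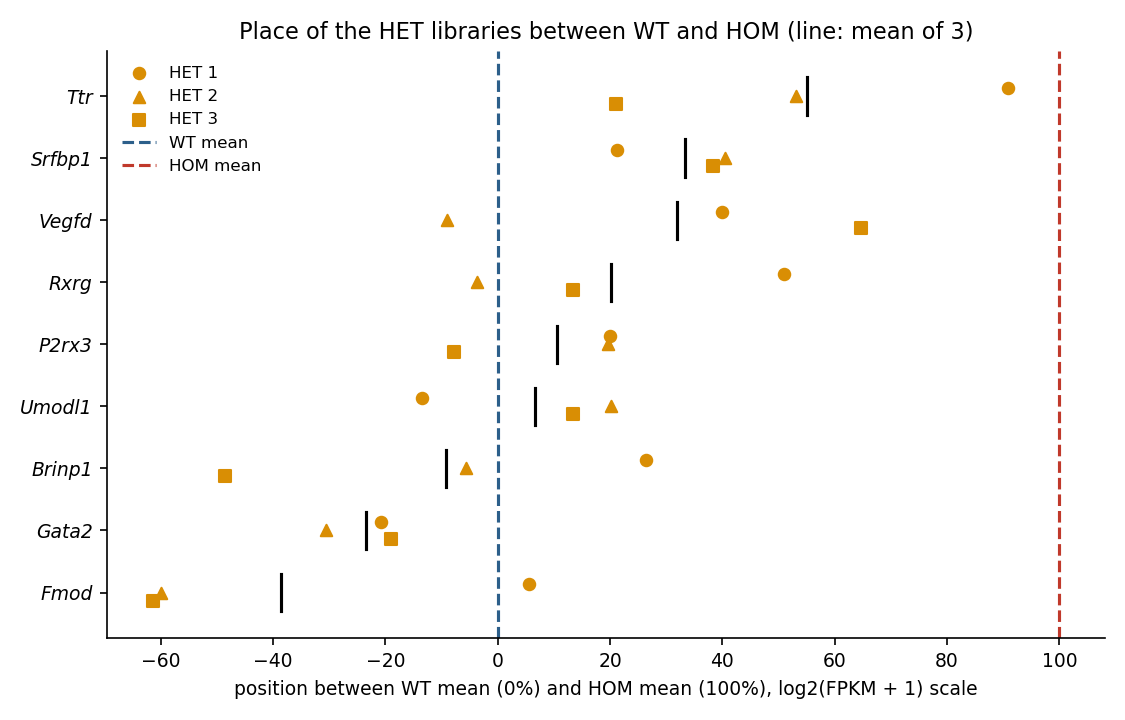
Position of each HET library between the WT mean (0%) and the HOM mean (100%) on the log2(FPKM + 1) scale, with the mean of the 3 libraries as a line. Ttr spans 21.0% to 90.8%, Srfbp1 stays between 21.3% and 40.5%, and Gata2 lies below 0% in each HET library. The positions describe values the genes were chosen on.

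HET minus WT was tested in limma over 15391 genes. The choice of genes did not use this contrast itself, but it used the HET and WT values. A low WT or HET value that helped a gene to be chosen also shifts HET minus WT. The p values, intervals and median of the 9 are therefore description only. No gene of the 9 passed, each with adjusted p = 0.9998, and 0 of 15391 genes did (0%), with 266 at an unadjusted p under 0.05. Ttr had the largest difference of the 9, 0.55 (95% interval 0.08 to 1.01, unadjusted p = 0.0291, higher in 2 of 3 HET libraries than in any WT library). Srfbp1 followed in p with 0.20 (95% interval -0.002 to 0.39, unadjusted p = 0.0513, higher in 3 of 3). The intervals of Vegfd (-0.22 to 0.72), Rxrg (-0.20 to 0.57), P2rx3 (-0.46 to 0.62), Umodl1 (-0.21 to 0.33), Brinp1 (-0.40 to 0.30), Fmod (-0.39 to 0.10) and Gata2 (-0.28 to 0.08) all held 0. The median of the 9 differences was 0.08, against 0.001 over all genes tested. Without HET 1 and WT 3 the difference of Ttr was 0.26 and that of Srfbp1 0.25, and neither passed.

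**Figure D4:**
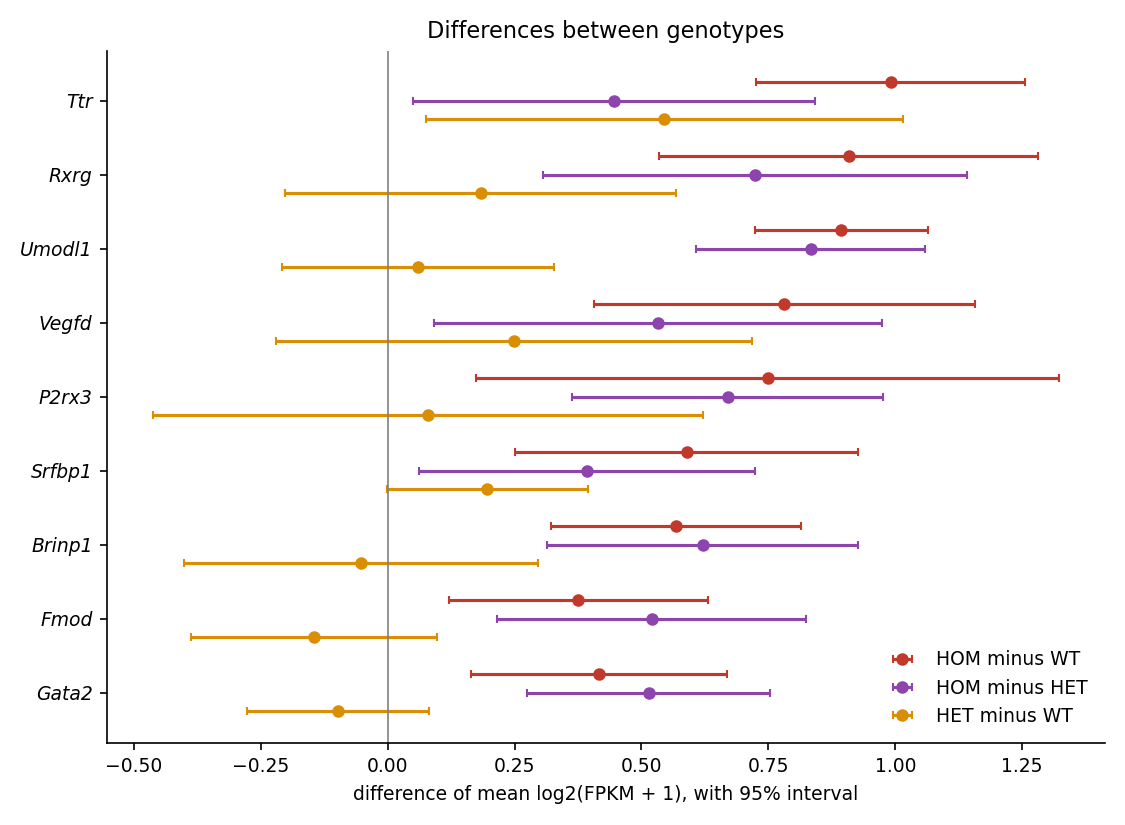
Differences of mean log2(FPKM + 1) for HOM minus WT, HOM minus HET and HET minus WT in the 9 genes, as points with 95% intervals from limma. The HET minus WT intervals of 8 genes include 0, and that of Ttr runs from 0.08 to 1.01. The intervals of the HOM contrasts describe values the genes were chosen on, and HET minus WT shares the HET and WT values of that choice.

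Ttr and Srfbp1 share chromosome 18 with Pou4f3, at 21.7 Mb and 10.1 Mb from it. The other 7 genes lie elsewhere. Of 343 listed genes with every HOM library above every WT library, 26 (7.58%) lie on chromosome 18, against 406 of 15391 expressed genes (2.64%). These shares are of unlike sets, since the 343 are part of the listed genes, whose share on chromosome 18 was not computed. Whether position bears on these levels was not tested. HOM 3, the HOM library with the most Pou4f3 RNA, had the highest level of Rxrg, Vegfd, P2rx3, Srfbp1, Brinp1 and Fmod, 6 of the 9, against 42.6% of those 343 genes. Ttr and Gata2 were highest in HOM 2, which had the least Pou4f3 RNA, and Umodl1 in HOM 1.

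The genes with the most similar pattern were ranked among 1087 other genes given in all 9 libraries, by the root mean square difference of log2(FPKM + 1) after centring on the 9-library mean. On the same scale the own spread of the 9 genes ran from 0.25 for Gata2 to 0.45 for Ttr, with P2rx3 at 0.42. A given distance is thus a closer match for a gene of large spread than for one of small spread. Nearest to Ttr was Gnpda1 (0.19), a glucosamine-6-phosphate deaminase gene also on chromosome 18, with 14.8 FPKM in HOM, 11.2 in HET and 6.80 in WT, and then Gm6477 (0.28). Nearest to Umodl1 was the centrosome gene Cep152 (0.18). P2rx3 had Mast1 (0.24), a microtubule-associated kinase of neurons, and Dcx (0.26), doublecortin of young neurons, as its nearest. Gata2 had Lum (0.08), the proteoglycan gene described above, and Dact2 (0.11). Rxrg and Brinp1 shared both of theirs, Tmem147os (0.22 and 0.10) and the heparan sulfate enzyme gene Hs3st5 (0.24 and 0.12), and Fmod had Pidd1 (0.08) and Hs3st5 (0.08). Vegfd had Gm10156 (0.16) and Ccsap (0.19), and Srfbp1 had Gm20257 (0.09) and Mettl25 (0.13).

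Marker lists of the cell types a cochlear dissection can hold were set beside the genes, and the cell source of each rise was not tested. As with the partners, the number of markers given for HOM is by itself no result about a cell type. Hepatocyte markers summed to 0.07 to 1.33 FPKM in HET and 0.18 to 0.50 FPKM in WT, with Fgb at 0 in all 6 and Alb at 0.06 FPKM or less, against Ttr at 29.66 FPKM or more. Of 9 choroid plexus markers, Folr1 (0.27 to 0.63 FPKM in HET, 0.26 to 0.57 FPKM in WT) and Kl (0.03 to 0.11 FPKM in HET, 0.04 to 0.14 FPKM in WT) were near 0, while Clic6 was at 41.6 ± 4.08 FPKM in HET and 43.0 ± 1.07 FPKM in WT. Mean levels in HET and WT were 36.87 and 36.75 FPKM for Calml4, 19.2 and 21.1 FPKM for Sostdc1 and 7.94 and 7.47 FPKM for Otx2. Those of Prlr were 0.12 and 0.1 FPKM. The list summed to 110 to 130 FPKM in HET and 115 to 125 FPKM in WT. The 2 of its genes given for HOM went the other way from Ttr. The potassium channel gene Kcnj13 fell to 2.97, 1.6 and 2.7 FPKM in HOM, against 9.84, 10.36 and 9.57 FPKM in HET and 10.32, 8.97 and 9.11 FPKM in WT (limma adjusted p = 0.000931 against WT and 0.000807 against HET). Kcne2 changed by -0.39 against WT (adjusted p = 0.0232, lost without WT 1, WT 2, HOM 1 or HOM 3 at 0.0508 to 0.0669 and under both scalings) and by -0.28 against HET (adjusted p = 0.0649).

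Of 10 spiral ganglion neuron markers, beside which P2rx3 and Brinp1 are of interest, 0 were given for HOM. Their sum was 105, 72.9 and 66.8 FPKM in HET 1 to 3 and 46.3, 83.9 and 112 FPKM in WT 1 to 3. WT 1 had the lowest sum and the lowest P2rx3, and HET 1 and WT 3, the libraries that stood apart, had the highest sums. P2rx3 was at 4.13, 4.12 and 3.44 FPKM in HET 1 to 3 and at 2.21, 4.53 and 4.57 FPKM in WT 1 to 3. Brinp1 was at 3.39, 2.87 and 2.27 FPKM in HET 1 to 3 and at 2.63, 3.47 and 2.82 FPKM in WT 1 to 3. Whether either gene follows the sums was not tested. Schwann and satellite glia markers, 1 of 10 given for HOM (Mag, at -0.31 against WT with limma adjusted p = 0.0216 and -0.02 against HET with adjusted p = 0.926), also peaked in HET 1 and WT 3, at 617 and 566 FPKM, against 303 to 346 FPKM in the other HET and 401 to 440 FPKM in the other WT libraries. Fibrocyte and mesenchyme markers summed to 2535 to 3260 FPKM in HET and 2476 to 2889 FPKM in WT. The 3 of 9 given for HOM were Dcn, Lum and Ogn, which are also in the proteoglycan list beside Fmod. Tendon markers, of which 0 of 5 were given for HOM, summed to 22.03 to 32.2 FPKM in HET and 26.4 to 30.7 FPKM in WT.

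Beside Gata2, mast cell markers summed to 5.97 to 6.83 FPKM in HET and 6.80 to 8.62 FPKM in WT, mostly Kit (5.16 to 5.93 FPKM in HET and 5.68 to 6.41 FPKM in WT), and 5 of the 6 had a mean under 1 FPKM. Kit itself was at 4.52 ± 0.661 FPKM in HOM, -0.35 against WT (limma adjusted p = 0.0183) and -0.26 against HET (adjusted p = 0.0796), where the libraries overlapped. Gata1, the erythroid and mast cell factor, was at 0.03 FPKM or less in these libraries. The erythroid genes Hbb-bs (34.76, 25.11 and 35.23 FPKM in HOM, 75.77, 34.79 and 55.28 FPKM in HET, 66.09, 72.85 and 79.79 FPKM in WT) and Alas2 were below WT in every HOM library. None (0) of 8 endothelial, 4 macrophage, 6 cartilage or 6 bone markers was given for HOM. In HET and WT the endothelial list summed to 58.7 to 71.4 FPKM and 66.5 to 70.1 FPKM. Among 9 supporting cell markers only the connexin genes Gjb2 and Gjb6 were given for HOM, and both rose. Gjb2 was at 201 ± 14.5 FPKM in HOM, 159 ± 8.70 FPKM in HET and 166 ± 12.9 FPKM in WT (SD, n = 3 each), a rise of 0.27 against WT (limma adjusted p = 0.0197) and 0.34 against HET (adjusted p = 0.0161). Gjb6 rose by 0.29 against WT (adjusted p = 0.0176) and by 0.28 against HET (adjusted p = 0.0175). Of all listed genes tested, 27.7% were called higher against WT and 8.17% against HET. The calls of Gjb2, Gjb6, Kit and Mag were not repeated under other scalings or without single libraries. The part of supporting cells in the rises of the 9 genes and of Epyc was not tested. Hair cell markers were present in HET and WT, with sums of 171 to 202 FPKM and 166 to 212 FPKM, and the 7 of 9 given for HOM summed to 22.5 to 64.4 FPKM in HOM, 132 to 147 FPKM in HET and 136 to 156 FPKM in WT.

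**Figure D5:**
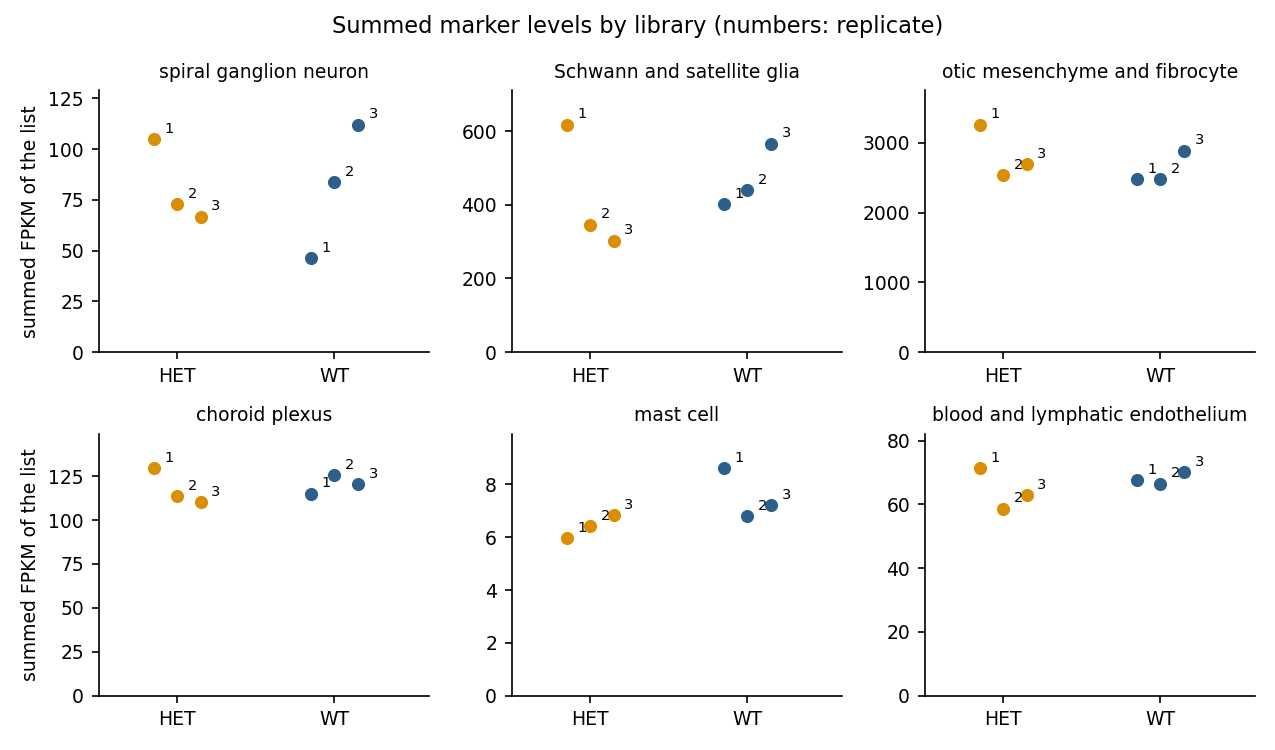
Summed FPKM of 6 marker lists in each HET and WT library, HET to the left of WT, with the replicate number beside each point; HOM is absent because only part of each list was given. HET 1 and WT 3 are highest for neurons (105 and 112 FPKM) and glia (617 and 566 FPKM), and mast cell markers reach at most 8.62 FPKM.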

How the data were processed

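The 9 genes, the lists and the tests were chosen with earlier results of these data known. Genes named are the 9, Pou4f3, partners given for HOM or among the 2 highest in WT of their list, the 2 genes most like each of the 9, and markers or partners of interest chosen after their values were seen; 2 genes under this rule are not reported here. The authors deposited 1 table of FPKM values for each library, rounded to 2 decimals per the values, and the HOM tables hold values for 1137 genes, and in all 1109 of them that were tested the HOM libraries lie apart from WT. The submitters' processing notes name DESeq2 and the mm8 build without a role; the aligner, counter and annotation used are not given in the sources at hand. Identifiers were matched to GENCODE M21 (GRCm38): 51633 of 51912 matched, and coordinates are from that annotation. Differences were tested on log2(FPKM + 1) with limma 3.58.1 (R 4.3.3, with a mean-variance trend, two-sided) over genes reaching 1 FPKM in 3 or more libraries of a comparison (6 libraries), with Benjamini-Hochberg adjustment and a threshold of 0.05, and all 9 genes passed the filter. No count test was run because the values are not counts. Depth was recovered from low values of genes with up to 600 bp of exon, 99.4% to 100% of them whole within 0.1 fragments; in HOM this rests on 14 to 19 values. The fits were tested on simulated data. Alternatives were other scalings, pseudocount, filter, no trend, a replicate block and leaving out libraries.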

Additional observations from a re-analysis of the deposited data

How the results depend on the processing

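All 216 alternative values of the HOM differences of the 9 genes stayed positive, from 0.27 to 1.23; the scalings, set on the listed genes, gave 0.54 to 1.23, and moved Fmod (0.38 against WT) to 0.55 and 0.58 and Gata2 (0.42) to 0.63 and 0.65. In HET minus WT the lowest adjusted p of the 9 under any setting was 0.266. There Umodl1 ran from -0.000828 to 0.15, P2rx3 from -0.18 to 0.21 and Brinp1 from -0.15 to 0.0587 when 1 library was left out. In HOM minus HET, median-ratio and upper-quartile scaling turned Egr1 (0.12 and 0.19), Eng (0.12 and 0.19) and Stra6 (0.11 and 0.17), and leaving out 1 library gave Egr1 from -0.0854 to 0.0945, Eng from -0.101 to 0.0325, Mrtfa from -0.0428 to 0.0606 and Stra6 from -0.152 to 0.0884. The cause was not tested.

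The HET position of Gata2 was -11.4% under median-ratio scaling, -14.8% under upper-quartile scaling and -13.76% without HET 1 and WT 3, a pair chosen after seeing the data, and from -37.6% to -12.6% without 1 library; that of P2rx3 ran from -37.9% to 24.2%. Called genes in HOM against WT numbered 1032 (307 higher, 725 lower), 655 under median-ratio (352 higher, 303 lower), 638 under upper-quartile scaling (353 higher, 285 lower) and from 588 to 864 without 1 library. In HOM against HET they numbered 485 (89 higher, 396 lower), 518 (246 higher, 272 lower) and 529 (306 higher, 223 lower) under these scalings, 304 with the replicate block and from 116 to 431 without 1 library. HET against WT gave 0, and from 0 to 1 without 1 library. Both scalings raised the median HOM difference (from -0.22 to -0.05 and -0.03 against WT), a direction fixed by setting them on listed genes that mostly lie below WT. Same-numbered libraries did not deviate together in every pair (r from -0.52 to 0.29), so the block shares only a number; it ended the calls of Cyp26b1, Dcn, Epyc, Gata3, Lmo2, Lum and P2ry6 against HET. Counting error is largest for Vegfd, with 28 to 121 fragments a library.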
